A study of Drosophila melanogaster with 18 samples.

Results

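Whole third-instar larvae of the 95Cc.del strain were compared with larvae of the wild type (WT). 95Cc.del is a Drosophila melanogaster strain from which the gene snRNA:U1:95Cc was removed. Its members are the 3 libraries labelled 95Cc.del and the 3 labelled WT, 6 of the 18 libraries in the series, chosen by label. WT is the isogenic strain w1118. In 95Cc.del the promoter, the transcript and the termination region of the gene were deleted in the homozygous state with CRISPR/Cas9, by injecting a pair of guides into embryos that express Cas9 under the germ-line nanos promoter, and the resulting lines were crossed to WT. The other 4 groups of 3 libraries, 21D.del, 82Eb.del, 95Ca.del and 95Cb.del, each lack 1 other U1 gene and serve here only to show where 95Cc.del differs. Sex, age within the instar and the number of larvae per library are not given in the sources used here. Nothing says that replicates came from separate cultures, so p-values measure the spread between these samples, which may be technical. Since whole larvae were used, fewer cells of a type and less RNA per cell cannot be told apart in any value given here.

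U1 snRNA is the RNA core of the U1 snRNP, the particle that base-pairs with the splice site at the start of an intron and thereby begins assembly of the spliceosome. The same particle, bound along nascent transcripts, also keeps the polyadenylation machinery from cutting them too early. The fly genome carries several U1 genes whose products are nearly identical, and the 95Cc product differs slightly from the others. A change in U1 supply can in principle touch splicing, the position of transcript ends and the amount of RNA. Only the amount, counted per gene, was analysed here.

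The sequences that define the strain are the guides, shown because they set the ends of the removed segment. Both are written in lower case, 5′ to 3′, without the cloning overhang and without a PAM, as taken from the oligonucleotides the study lists. Both target chromosome arm 3R, and each has 20 bases.
Upstream guide: tctaggatatcggtcatgac
Downstream guide: gcgcaagctagctctgttag

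The gene itself lies on 3R at positions 23826334 to 23826497 of the dm6 build, plus strand, and is 164 bp long. It sits inside an intron of CG34355 that runs over 8210 bp (3R, 23821747 to 23829956), and no exon of CG34355 overlaps it. The count table held 0, 0 and 0 reads for snRNA:U1:95Cc in the 95Cc.del libraries, against 4, 0 and 1 reads in the WT libraries. The 95Cc.del libraries thus held no read of the deleted gene, but the 5 WT reads give a bound of only at least 1.67-fold lower (computed against 3 counts over the group), and no test was made. Reads from the other U1 genes were as scarce. snRNA:U1:95Cb, which lies in the same intron, had 0, 0 and 0 reads in 95Cc.del larvae, against 9, 0 and 0 in WT larvae, so all its reads came from 1 library. Because the U1 copies are nearly identical, reads could have been split or dropped among them in counting, and the counts give no estimate of total U1 RNA.

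No gene next to the deletion was called. CG34355, the host gene, had 13.1, 12.7 and 13.4 CPM (a gene's reads per 1000000 counted reads of its library) in 95Cc.del larvae, against 11.5, 15.5 and 12.5 CPM in WT larvae. Its log2 fold change was 0.03 (adjusted p = 0.942 in edgeR's quasi-likelihood test with Benjamini-Hochberg adjustment). The neighbours CG33111 (-0.15, edgeR adjusted p = 0.609) and eIF4G2 (0.10, edgeR adjusted p = 0.722), which overlap each other on the same strand, were not called either. Of the 28 genes tested within 100 kb of the deletion none was called higher or lower by edgeR (median log2 fold change -0.03). Within 500 kb, 0 of 141 tested genes were called higher and 8 lower (median -0.04). Within 1000 kb, 2 of 240 were called higher and 8 lower. Over all tested genes 2.07% were called higher and 2.73% lower.

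Of the 6 libraries, WT replicate 2 stood apart. In the study's read statistics it also had the lowest mapped share of reads among the WT libraries. Total counts ran from 15964130 to 18204001 in 95Cc.del and from 11919121 (replicate 2) to 21776613 (replicate 1) in WT, and a gene with 0 reads can hide a level of up to 0.165 to 0.188 CPM in a 95Cc.del library and 0.138 to 0.252 CPM in a WT library (3 counts, counting error only). Over 7352 genes with a mean of at least 10 CPM, the median absolute log2 difference was 0.0952 to 0.169 between any pair of 95Cc.del libraries. It was 0.103 between WT replicates 1 and 3, but 0.454 and 0.458 between WT replicate 2 and these. 95Cc.del replicate 1 departed from its group in the same genes as WT replicate 2 (correlation of their deviations from the group means 0.66 across genes, which are not independent). An example is snRNA:7SKa, an abundant short nuclear RNA, with 66.9, 2436 and 3631 CPM in 95Cc.del larvae, against 5331, 53.8 and 4668 CPM in WT larvae. WT replicate 2 also departed alone, as in RpS23, a ribosomal protein gene, with 8178, 7480 and 7111 CPM in 95Cc.del larvae, against 8504, 985 and 6707 CPM in WT larvae. Results are therefore given for all 3 replicates and for replicates 1 and 3 of each group alone. Since 95Cc.del replicate 1 shares the departure, 95Cc.del replicates 2 and 3 against WT replicates 1 and 3 were added as a comparison chosen after seeing the data.

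With all 3 replicates, 258 genes (2.07% of 12457 tested) were higher and 340 (2.73%) lower in 95Cc.del, at more than a 2-fold change and an adjusted p under 0.05 in edgeR. These are called rose and fell in what follows, and each list count below is to be read beside these shares. Replicates 1 and 3 alone gave 295 higher (2.36% of 12506) and 380 lower (3.04%). 95Cc.del replicates 2 and 3 against WT replicates 1 and 3 gave 418 higher (3.37% of 12405) and 445 lower (3.59%). The higher genes thus made up 43.1% of the calls with all replicates, 43.7% with replicates 1 and 3 and 48.4% with 95Cc.del replicates 2 and 3 against WT replicates 1 and 3. The share was 34.9% with library totals as the scaling and 28.6% with a block on the replicate number. It was 32.2% to 36.6% with any 1 library other than WT replicate 2 left out and 44.9% without WT replicate 2. Of the 258 genes that rose, 213 were also called with replicates 1 and 3, as were 283 of the 340 that fell. The counts move with single libraries, since leaving out 95Cc.del replicate 1, 2 or 3 gave 326, 273 or 309 calls, over slightly larger sets of tested genes, where all libraries gave 598. All 598 had CPM ranges that did not overlap between the groups, which also held for 12.8% of tested genes on the higher side and 11.7% on the lower.

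The higher share was larger in 95Cc.del than in the other deletion strains when each was set against the same WT libraries. In 21D.del 15 genes (0.121%) were higher and 111 (0.892%) lower, so 11.9% of its calls were higher. In 82Eb.del 91 (0.733%) were higher and 472 (3.80%) lower, a share of 16.2%. In 95Ca.del 30 (0.241%) were higher and 313 (2.51%) lower, a share of 8.75%, and in 95Cb.del 179 (1.43%) were higher and 745 (5.96%) lower, a share of 19.4%. These comparisons share their controls, so the shares are set side by side and not tested against each other. They also differ in spread between libraries. The biological coefficient of variation was 0.28 for 95Cc.del against WT and 0.314 to 0.438 for the other strains against WT. The other strains were run against WT with all replicates and the same settings only. 95Cc.del was also compared directly with the 12 libraries of the other deletion strains, with no WT library in the fit. Here 95Cc.del was set against the mean of the other 4 strain means, so a call does not show a difference from each strain. In what follows, above or below the other strains refers to that mean. There 838 genes (6.46% of 12963) were higher and 337 (2.60%) lower in 95Cc.del, and 71.3% of the calls were higher. Of the 258 genes above WT, 192 were also above the mean of the other strains, 1 was below it and 65 were not called. Of the 340 genes below WT, 71 were also below the mean of the other strains, 45 were above it and 224 were not called. These overlaps share the 95Cc.del libraries and are given as descriptions.

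**Figure D1:**
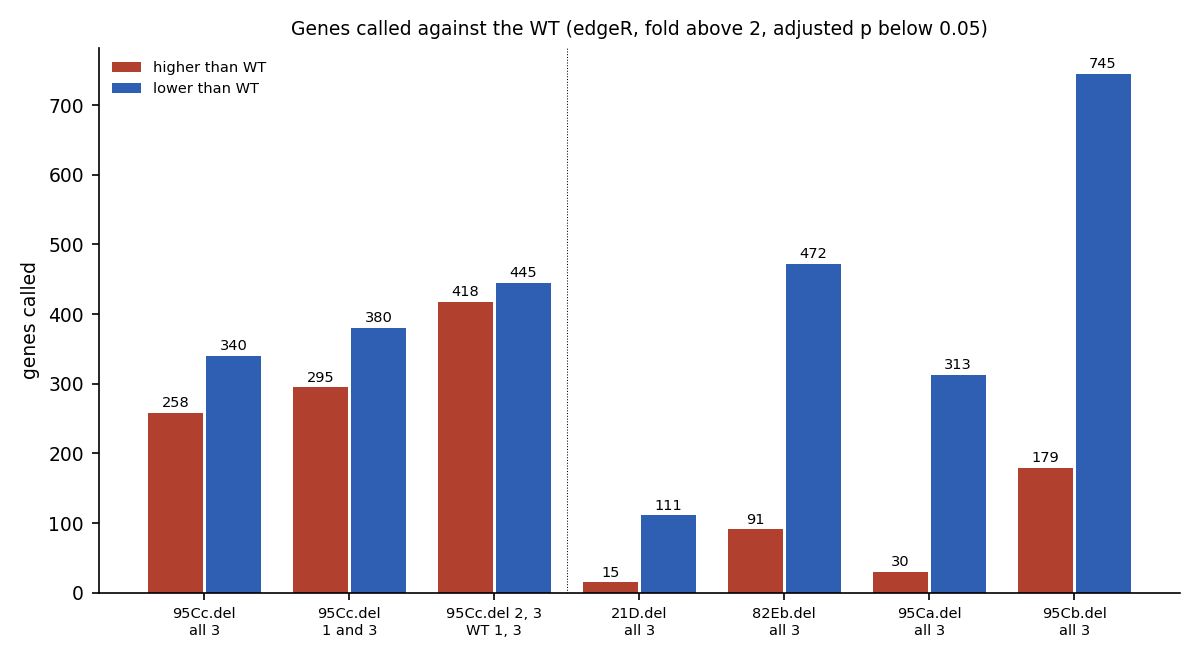
Number of genes called higher or lower than WT (vertical axis, bars) for 95Cc.del against WT under 3 choices of libraries and for each other deletion strain against the same WT libraries. 95Cc.del with all replicates shows 258 higher and 340 lower genes, whereas in each of the other strains the higher genes are the much smaller count.

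**Figure D2:**
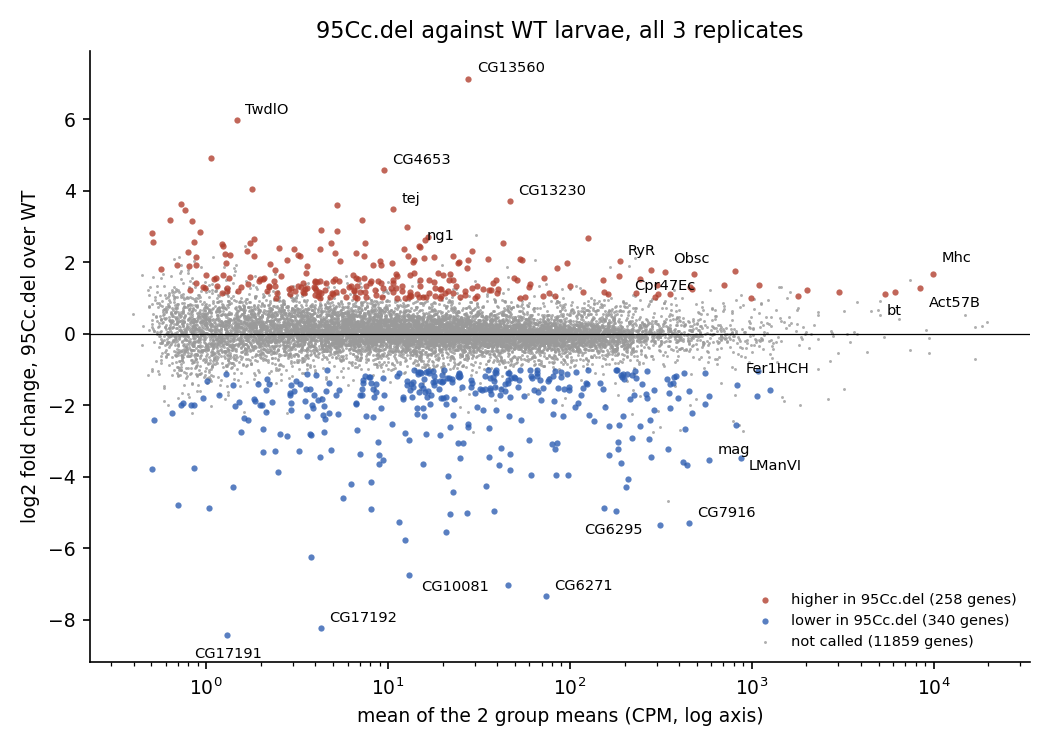
Log2 fold change of 95Cc.del over WT (vertical axis) against the mean of the group means in CPM (horizontal log axis) for the 12457 tested genes, with called genes coloured and some of the genes named in the text labelled. Muscle genes such as Mhc and Act57B lie above 0 at the right, and lipase genes such as CG6271 and CG17192 form the lowest points.

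The genes that rose took a larger part of the counted reads. Summed over the 258 genes, 67326 to 71943 CPM were counted in 95Cc.del libraries, against 27370.2 to 28132 CPM in WT libraries. Their median log2 fold change was 1.44, and 63 exceeded 4-fold. The 340 genes that fell summed to 11838 to 13565 CPM in 95Cc.del libraries, against 44387 to 54556 CPM in WT libraries, with a median of -1.72 and 130 beyond 4-fold. The sums did not overlap, which follows from how the genes were chosen. The 8 genes that rose with the highest mean CPM, a measure not corrected for gene length, were Mhc, Act57B, bt, up, sls, Mlc1, SERCA and CG2233, and all but the last encode muscle proteins.

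Genes of the contractile apparatus were among those that rose. Of 30 tested genes for sarcomere proteins, the repeating units of muscle, 9 rose and none fell, with a median log2 fold change of 0.86 against 0.02 over all tested genes. Replicates 1 and 3 gave 8 higher and none lower. The sarcomere genes summed to 80517 to 85592 CPM in 95Cc.del larvae, against 38019.7 to 40665 CPM in WT larvae, so that the groups were far apart and tight within. Of the 7 genes set as body wall muscle markers, all of which are also in the sarcomere list, 5 rose. The calls lie near the threshold: leaving out any 1 library other than WT replicate 2 left 3 sarcomere genes and none of the markers called, while the median of the sarcomere list stayed between 0.73 and 1.07.

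Mhc encodes muscle myosin heavy chain, the motor of the thick filament. It had 13733, 16024 and 15745 CPM in 95Cc.del larvae, against 5443, 3606 and 5194 CPM in WT larvae (log2 fold change 1.67 ± 0.32 SE, edgeR adjusted p = 0.0271). Act57B, a larval muscle actin of the thin filament, had 12998, 11330.4 and 11655 CPM in 95Cc.del, against 5602, 3833 and 5311 CPM in WT (1.28 ± 0.29, edgeR adjusted p = 0.0497). In both genes WT replicate 2 was the lowest library, and every 95Cc.del library was well above every WT library. Mlc1, the alkali light chain of myosin, rose by 1.23 ± 0.26 on the log2 scale (edgeR adjusted p = 0.0368). The troponin T gene up, part of the calcium switch of the thin filament, had 7433, 6852 and 7999 CPM in 95Cc.del, against 3420, 3058 and 3889 CPM in WT (1.11 ± 0.25, edgeR adjusted p = 0.048). With any 1 library other than WT replicate 2 left out these calls were lost (for Mhc, log2 fold change 1.61 to 1.83, edgeR adjusted p = 0.0567 to 0.113). Without WT replicate 2 Mhc kept its call at 1.42 (edgeR adjusted p = 0.00167) and up lost it at 0.92, under the 2-fold threshold.

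Genes of giant elastic and signalling proteins of the sarcomere also rose. Obsc, the obscurin homologue of the M line, had 546, 496 and 491 CPM in 95Cc.del larvae, against 158, 164 and 145 CPM in WT larvae, with narrow spread in both groups (1.74 ± 0.14, edgeR adjusted p = 0.00107). For bt, which encodes the titin-like protein projectin, the values were 9591, 8101 and 7569 CPM in 95Cc.del, against 2920.1, 5774 and 3025 CPM in WT (1.18 ± 0.24, edgeR adjusted p = 0.0338). For sls, the gene of the other titin-like protein (kettin and its longer forms), they were 4579, 3913 and 3858 CPM in 95Cc.del, against 1537, 2579 and 1613 CPM in WT (1.16 ± 0.19, edgeR adjusted p = 0.0139). Here WT replicate 2 was the highest WT library, the opposite of its place in Mhc. Obsc was called with each library left out in turn, whereas bt and sls lost their calls without any 1 library other than WT replicate 2 (edgeR adjusted p up to 0.166 and 0.096). Strn-Mlck, a kinase of the myosin light chain family (1.15), and TpnC25D, a troponin C (1.26), rose as well. Not every sarcomere gene moved: Zasp66, a protein of the Z disc, had 684, 639 and 653 CPM in 95Cc.del, against 689, 653 and 741 CPM in WT, a log2 fold change of -0.06 (edgeR adjusted p = 0.906), and wupA, troponin I, stayed under the threshold at 0.65 (edgeR adjusted p = 0.0928).

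Genes of muscle excitation and membranes were a further set. Of 18 tested genes for muscle membrane and junction proteins, 5 rose and none fell (median 0.64), 5 rose with replicates 1 and 3, and 2 or 3 were called with any 1 library other than WT replicate 2 left out. RyR, the calcium release channel of the sarcoplasmic reticulum, had 321, 285 and 300.5 CPM in 95Cc.del larvae, against 80.5, 64.9 and 77.3 CPM in WT larvae (2.03 ± 0.20, edgeR adjusted p = 0.00265). The pump that takes the calcium back, SERCA, rose by 1.07 ± 0.24 (edgeR adjusted p = 0.0431), with 2379, 2474 and 2486 CPM in 95Cc.del, against 1256, 999.9 and 1238 CPM in WT. Scgdelta, a sarcoglycan of the dystrophin complex, had 15.1, 18.9 and 16 CPM in 95Cc.del, against 3.35, 5.54 and 4.23 CPM in WT (1.98 ± 0.19, edgeR adjusted p = 0.00207). None of the 3 overlapped between groups, as held for every called gene. RyR was called with each library left out in turn, and SERCA lost its call whichever library was left out (0.87 without WT replicate 2, edgeR adjusted p up to 0.163 without the others). The remaining calls were the neuromuscular glutamate receptor subunit GluRIIE (1.06, lost without any 1 library other than WT replicate 2) and its auxiliary protein Neto (1.49), which had 6.21, 5.34 and 6.08 CPM in 95Cc.del, against 1.65, 2.35 and 2.39 CPM in WT.

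Fuel metabolism moved in the same direction with few calls. Among 26 tested genes of glycolysis, glycogen and the glycerol phosphate shuttle, 3 rose and none fell, and 25 had a log2 fold change above 0 (median 0.66, against 0.02 over all tested genes). The call count fell to 1 when WT replicate 3 or any 95Cc.del library was left out. Gpdh1, the cytosolic arm of the glycerol phosphate shuttle of insect muscle, had 240.1, 229.9 and 211 CPM in 95Cc.del larvae, against 88.4, 57.9 and 88.6 CPM in WT larvae (1.52 ± 0.27, edgeR adjusted p = 0.0207). Gyg, glycogenin, the primer of glycogen synthesis, rose by 1.25 ± 0.14 (edgeR adjusted p = 0.00406), and Pfk, phosphofructokinase, by 1.11 ± 0.21 (edgeR adjusted p = 0.0269). Gyg was called with each library left out in turn, and Gpdh1 lost its call without any 1 library other than WT replicate 2 (edgeR adjusted p up to 0.0849). Aldolase (Ald1), a further enzyme of the pathway, had 1523, 2285 and 2749 CPM in 95Cc.del, against 1438, 992 and 1733 CPM in WT, overlapping groups that were not called (0.66, edgeR adjusted p = 0.409).

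Basement membrane genes showed 5 rises and no fall among 20 tested (median 0.44), 3 rises with replicates 1 and 3, and 1 to 3 with any 1 library other than WT replicate 2 left out. prc, pericardin, a collagen-like protein of the heart tube matrix, had 10.7, 11.2 and 11.2 CPM in 95Cc.del larvae, against 2.39, 2.18 and 2.39 CPM in WT larvae, among the tightest groups of any gene named here (2.25 ± 0.20, edgeR adjusted p = 0.00171). Ndg, nidogen, a linker of the basement membrane networks, rose by 1.32 ± 0.21 (edgeR adjusted p = 0.014, and up to 0.0674 without 1 of the 95Cc.del libraries). Loxl2, a lysyl oxidase that cross-links collagen, rose from low counts (2.81 ± 0.51, edgeR adjusted p = 0.0227), with 0.604, 0.788 and 1.25 CPM in 95Cc.del, against 0.0918, 0.168 and 0.119 CPM in WT, where the highest WT library was at the level that a few reads give. PH4alphaNE1 (1.53) and PH4alphaSG2 (1.45), subunits of the collagen-modifying prolyl 4-hydroxylase family, were the other calls, and Loxl2 lost its own without 95Cc.del replicate 2 or 3 or WT replicate 1 or 3 (edgeR adjusted p up to 0.101). trol, perlecan, the heparan sulphate proteoglycan of these membranes, was not called (0.30, edgeR adjusted p = 0.326).

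**Figure D3:**
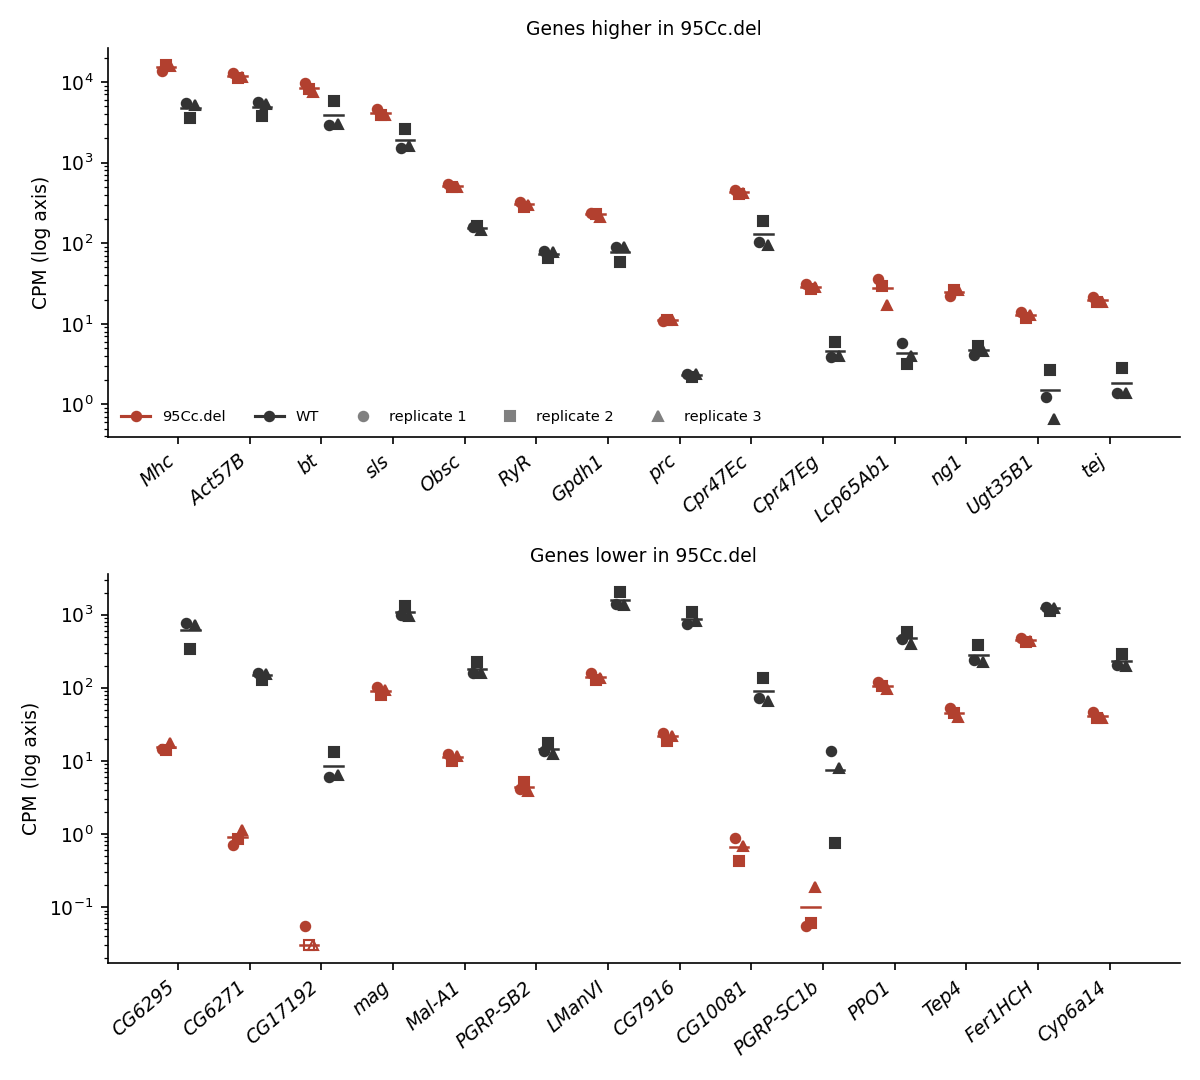
CPM on a log axis (vertical) of genes that rose (upper panel) and genes that fell (lower panel), with the 3 libraries of 95Cc.del beside the 3 of WT for each gene, symbols by replicate, a line at each group mean and hollow symbols at the foot for 0 reads. The groups do not overlap in any gene plotted, as in every called gene, and WT replicate 2 is far below the other WT libraries in PGRP-SC1b.

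Cuticle genes were a further group with rises. The cuticle of the larva is made of chitin bound by proteins of the Cpr family (which carry the Rebers and Riddiford chitin-binding domain), the closely related larval cuticle proteins (Lcp) and the Tweedle proteins. Of 43 tested Cpr genes 8 rose and 3 fell (median 0.31). Replicates 1 and 3 gave 10 higher and 7 lower of 42, and leaving out any 1 library other than WT replicate 2 gave 3 or 4 higher and 1 or 2 lower. The summed CPM of the Cpr genes went the other way from their median, with 2509 to 2742 CPM in 95Cc.del larvae, against 3063 to 3328 CPM in WT larvae. Of 15 tested Lcp genes 4 rose and none fell (median 0.91), 3 with replicates 1 and 3 (1 without WT replicate 3 and 2 without any 1 of the 95Cc.del libraries). The Lcp genes summed to 25641, 27635 and 26966 CPM in 95Cc.del larvae, against 28293, 3759 and 23524 CPM in WT larvae, so the sums overlapped and only WT replicate 2 was far lower. Of 12 tested Tweedle genes 2 rose (median 0.09).

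Cpr47Eg had 31.0, 26.9 and 28.3 CPM in 95Cc.del larvae, against 3.86, 5.96 and 3.94 CPM in WT larvae (2.70 ± 0.14, edgeR adjusted p = 0.000224). Cpr47Ec, of the same cluster, had 453, 406 and 423 CPM in 95Cc.del, against 104, 186 and 96.2 CPM in WT (1.80 ± 0.18, edgeR adjusted p = 0.00268). In both the WT libraries stood well below every 95Cc.del library. Lcp65Ag1 rose by 2.15 ± 0.18 (edgeR adjusted p = 0.00141), with 31.9, 26.7 and 28.3 CPM in 95Cc.del, against 5.14, 9.73 and 5.67 CPM in WT. Lcp65Ab1 rose by 2.63 ± 0.37 (edgeR adjusted p = 0.00912), with 36.2, 29.2 and 17.3 CPM in 95Cc.del, against 5.83, 3.19 and 3.94 CPM in WT (edgeR adjusted p = 0.0514 without WT replicate 3). The Lcp65A genes include near-identical copies, so the split of reads among them is uncertain. TwdlO had 28, 52 and 65 reads in 95Cc.del, against 1, 0 and 1 in WT, a ratio of 72.2 with a 95% counting interval of 19.6 to 602. Cpr66Cb went the other way (-2.13 ± 0.30, edgeR adjusted p = 0.0092), with 1.04, 1.39 and 0.814 CPM in 95Cc.del, against 4.13, 4.45 and 5.78 CPM in WT, and was not called without 95Cc.del replicate 1 or 3 (edgeR adjusted p = 0.0616 and 0.0555).

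Lcp3, one of the major larval cuticle proteins, shows what WT replicate 2 does to a call. It had 12121, 10718 and 10583 CPM in 95Cc.del larvae, against 5078, 974 and 5016 CPM in WT larvae. The groups did not overlap, yet it was not called with all replicates (1.52, edgeR adjusted p = 0.253) and was called with replicates 1 and 3 (1.07).

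Tanning genes gave few calls. Of 17 tested genes for tanning and melanin enzymes 1 fell and none rose (median -0.21), where 2.73% of all tested genes fell, and replicates 1 and 3 gave 1 higher and 5 lower of 18. The gene that fell, and was not called with any 1 library other than WT replicate 2 left out (edgeR adjusted p up to 0.0815), was e, ebony, which couples beta-alanine to dopamine for cuticle colour and hardening. It had 71.1, 63.4 and 71.3 CPM in 95Cc.del larvae, against 191, 151 and 202 CPM in WT larvae (-1.40 ± 0.22, edgeR adjusted p = 0.0141).

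All 4 tested genes of the new glue and intermoult set rose (median 2.08), as they did with replicates 1 and 3. These are genes of the salivary gland that are active before the glue protein genes proper. ng1 had 21.9, 26.4 and 26.4 CPM in 95Cc.del larvae, against 4.13, 5.29 and 4.59 CPM in WT larvae (2.45 ± 0.17, edgeR adjusted p = 0.000631). ng3 had 121, 165 and 179 CPM in 95Cc.del, against 44.4, 22.1 and 49.1 CPM in WT (1.99 ± 0.41, edgeR adjusted p = 0.0358, and up to 0.127 without any 1 library other than WT replicate 2), ng2 rose by 2.18 and Pig1 by 1.29. ng1 and ng2 are close copies, so the split of reads between them is uncertain. Their sum was 206 to 269 CPM in 95Cc.del larvae, against 57.2 to 71.9 CPM in WT larvae. The glue genes themselves, which salivary glands switch on in the late part of the instar, gave no call among 8 tested, and their median was -0.48. Sgs3, which encodes a mucin-like glue protein, had 5661, 8196 and 9502 CPM in 95Cc.del, against 13293, 4929 and 14839.7 CPM in WT, so WT replicate 2 was below the 95Cc.del range (-0.53, edgeR adjusted p = 0.668).

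Ecdysone, the moulting steroid, drives these transitions. Beside 2.73% of all tested genes, 1 of 22 tested ecdysone response genes fell and none rose against WT (median -0.43). This was ImpE2, an ecdysone-inducible gene of the imaginal discs, with 131, 128 and 123 CPM in 95Cc.del larvae, against 243, 359 and 262 CPM in WT larvae (-1.13 ± 0.12, edgeR adjusted p = 0.00282). br, the Broad transcription factor of the early hormone response, had 998, 1127 and 1231 CPM in 95Cc.del, against 1331, 1573 and 1636 CPM in WT, groups that did not overlap but differed by less than 2-fold (-0.41, edgeR adjusted p = 0.324). Of 3 tested Eig71E genes, hormone-induced genes of the late salivary gland, 2 fell, among them Eig71Ea (0.604, 0.728 and 0.501 CPM in 95Cc.del, against 3.31, 5.71 and 4.47 CPM in WT, -2.81). Cyp18a1, which inactivates the hormone, was the 1 gene that rose among 10 tested for ecdysteroid synthesis and breakdown, where 2.07% of all tested genes rose. It had 24.4, 24.6 and 28.8 CPM in 95Cc.del, against 12.5, 8.47 and 10.9 CPM in WT (1.29 ± 0.26, edgeR adjusted p = 0.0329, and up to 0.125 without any 1 library other than WT replicate 2).

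Several genes outside these groups rose by large factors. CG4653, whose symbol is only a CG number, had 19.9, 17.7 and 17 CPM in 95Cc.del larvae, against 0.505, 0.671 and 1.13 CPM in WT larvae (4.57 ± 0.31, edgeR adjusted p = 0.00057). CG13230 had 75.0, 81.5 and 105 CPM in 95Cc.del, against 7.49, 5.79 and 6.74 CPM in WT (3.72 ± 0.27, edgeR adjusted p = 0.000753). tej, a Tudor-domain gene of the germ-line piRNA pathway that restrains transposons, had 21.7, 18.7 and 18.4 CPM in 95Cc.del, against 1.38, 2.85 and 1.37 CPM in WT (3.48 ± 0.22, edgeR adjusted p = 0.000397). The 3 genes were low in every WT library and high in every 95Cc.del library, but only genes without overlap between groups could be named this way. The germ-line gene aub, of the same pathway as tej, was not called (0.55, edgeR adjusted p = 0.142). Ugt35B1, a glycosyltransferase of detoxification, had 13.9, 11.8 and 12.8 CPM in 95Cc.del, against 1.24, 2.68 and 0.656 CPM in WT (3.19 ± 0.37, edgeR adjusted p = 0.00432). Smvt, named for a sodium-dependent vitamin transporter, had 83.6, 71.1 and 64.2 CPM in 95Cc.del, against 13.6, 14.8 and 9.78 CPM in WT (2.55 ± 0.16, edgeR adjusted p = 0.000386). Acsx1R had 9.23, 8.19 and 10.1 CPM in 95Cc.del, against 0.964, 2.18 and 0.895 CPM in WT (2.87 ± 0.28, edgeR adjusted p = 0.00246).

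CG13560 had the largest fitted rise but an uneven one. It had 3.08, 88.5 and 73.8 CPM in 95Cc.del larvae, against 0.367, 0 and 0.716 CPM in WT larvae (7.14, edgeR adjusted p = 0.0368). 95Cc.del replicate 1 was far below the other 95Cc.del libraries, and the gene was not called with replicates 1 and 3. Among heat shock genes 3 of 16 rose and none fell with all replicates (median 0.40), and 1 was higher and 1 lower of 17 with replicates 1 and 3. All 3 that rose are copies of the Hsp70 chaperone gene at low levels, such as Hsp70Aa with 0.989, 1.39 and 1.5 CPM in 95Cc.del, against 0.184, 0.587 and 0.119 CPM in WT (2.28). A further copy, Hsp70Ba, did not pass the filter with all replicates and was the 1 lower with replicates 1 and 3. It had 1, 1 and 1 reads in 95Cc.del, against 18, 2 and 11 in WT, a 10.4-fold lower sum with a 95% counting interval of 3.24 to 53. The copies are near-identical and the values of single copies uncertain, and 1 was called without WT replicate 1 but none without WT replicate 3 or any 1 of the 95Cc.del libraries.

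**Figure D4:**
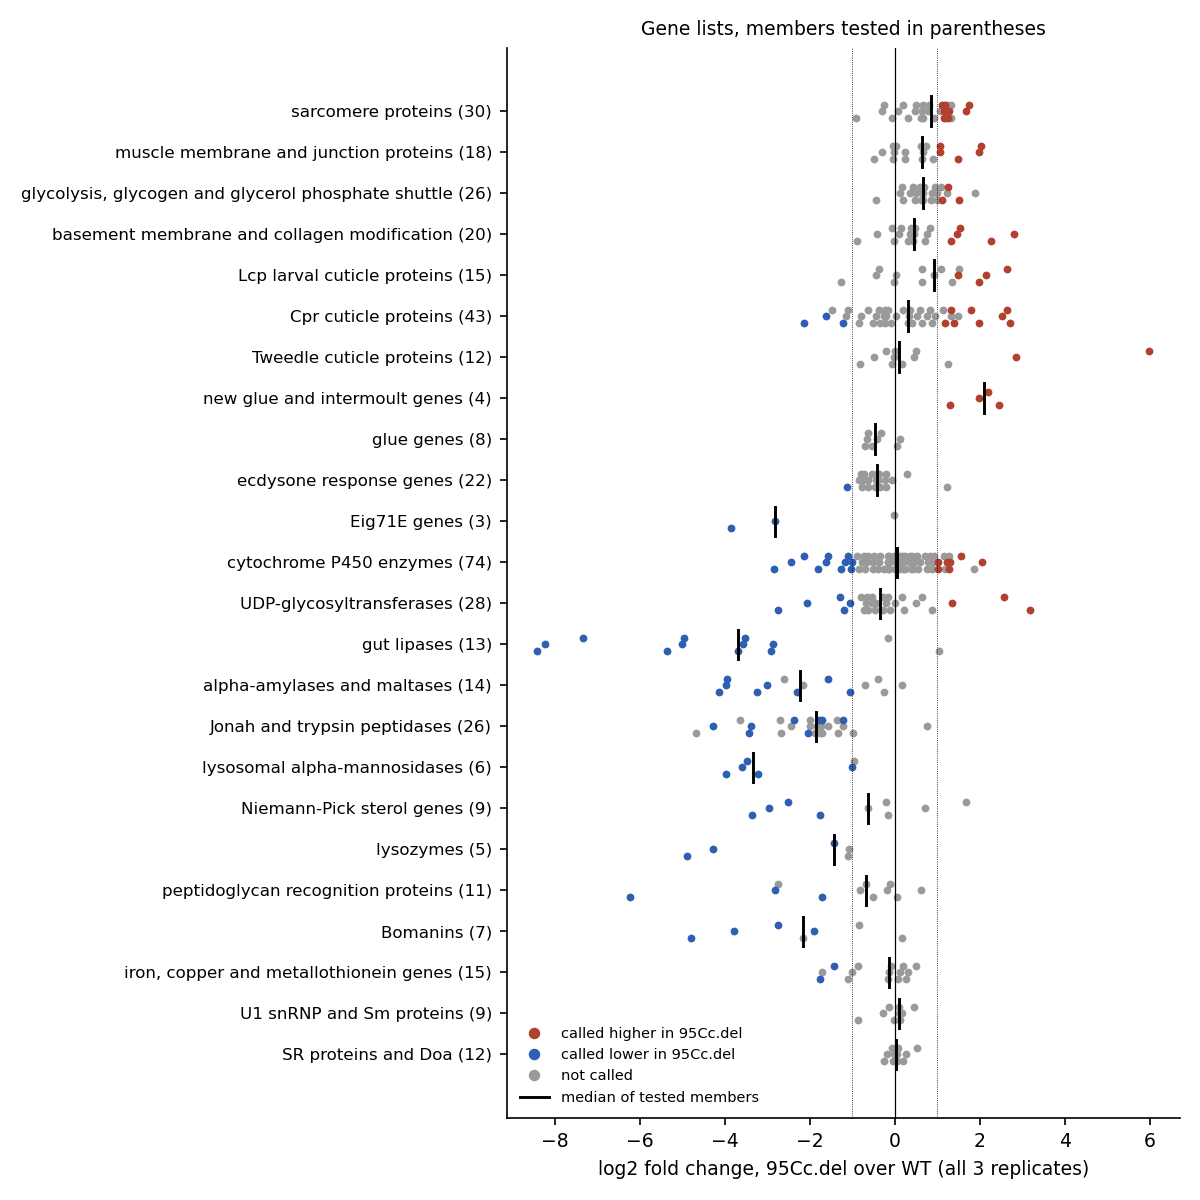
Log2 fold change of 95Cc.del over WT (horizontal axis) of every tested gene in 24 gene lists (1 line per list), with called genes coloured and the median of each list marked. Muscle, glycolysis, Lcp and new glue lists lie to the right of 0, and lipases, mannosidases, maltases, Jonah and trypsin peptidases and Bomanins lie to the left.

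Many digestive genes fell. Fly larvae digest fats, starch and protein in the midgut with secreted lipases, amylases and maltases, and serine peptidases of the trypsin and Jonah families. Of 13 tested gut lipase genes 11 fell and none rose, with a median log2 fold change of -3.68, against 0.02 over all tested genes and 2.73% of them called lower. Replicates 1 and 3 also gave 11. The lipase genes summed to 304 to 355 CPM in 95Cc.del larvae, against 4196 to 4386 CPM in WT larvae.

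CG6295, a lipase gene, had 14.4, 13.9 and 17.4 CPM in 95Cc.del larvae, against 756, 339 and 728 CPM in WT larvae (-5.35 ± 0.47, edgeR adjusted p = 0.00169). mag, magro, a lipase that also handles sterol esters in the gut, had 101, 79.8 and 91.9 CPM in 95Cc.del, against 996, 1299 and 946 CPM in WT (-3.53 ± 0.15, edgeR adjusted p = 0.000188). CG6271 had 0.714, 0.849 and 1.13 CPM in 95Cc.del, against 158, 128 and 155 CPM in WT (-7.34 ± 0.32, edgeR adjusted p = 0.000188). Each WT library was thus many times above every 95Cc.del library. CG17191 had no read in any 95Cc.del library, against 40, 40 and 44 reads in WT, at least 41.5-fold lower. Its neighbour CG17192 had 1, 0 and 0 reads in 95Cc.del, against 130, 159 and 106 in WT, a ratio of 397 with a 95% counting interval of 70.8 to 15700.5. Lip3, a further lipase, fell by 5.0 on the log2 scale (edgeR adjusted p = 0.000433).

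Carbohydrate digestion fell too. Of 14 tested amylase and maltase genes 8 fell and none rose (median -2.23), 8 with replicates 1 and 3. Their sum was 742 to 879.5 CPM in 95Cc.del larvae, against 2280.1 to 3182 CPM in WT larvae. Mal-A1, a maltase, had 12.4, 10.1 and 11.7 CPM in 95Cc.del, against 159.7, 228 and 159.8 CPM in WT (-3.96 ± 0.13, edgeR adjusted p = 0.000156). Amyrel, an amylase-related gene, had 70.9, 63.9 and 58.9 CPM in 95Cc.del, against 280.4, 423 and 277 CPM in WT (-2.29 ± 0.13, edgeR adjusted p = 0.000278). The 95Cc.del group was tight in these genes, and WT replicate 2 was the highest WT library in both. Amy-p, the proximal amylase gene, was another case of WT replicate 2: it had 20.1, 115 and 141 CPM in 95Cc.del, against 789.7, 12.5 and 802 CPM in WT and was not called (-2.60, edgeR adjusted p = 0.37). It has a near-identical copy, Amy-d. Mal-A5 was not called (-0.25, edgeR adjusted p = 0.352), so the maltases did not move as 1 block.

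Of 26 tested Jonah and trypsin peptidase genes 8 fell and none rose (median -1.85). With replicates 1 and 3, 20 of 27 were lower, and with 95Cc.del replicates 2 and 3 against WT replicates 1 and 3, 25 of 27. The sum over the list was 3661 to 7918 CPM in 95Cc.del larvae, against 4045 to 32552 CPM in WT larvae, where WT replicate 2 was the 1 WT library within the 95Cc.del range. Jon65Aiv had 717, 1234 and 1648 CPM in 95Cc.del, against 5663, 222 and 6256 CPM in WT (-1.82, edgeR adjusted p = 0.422). thetaTry, a trypsin, was free of this split, with 20.5, 17.4 and 20 CPM in 95Cc.del, against 318, 515 and 338 CPM in WT (-4.28 ± 0.16, edgeR adjusted p = 0.000188). Jon65Aii, a Jonah peptidase, fell by 1.79 ± 0.18 on the log2 scale (edgeR adjusted p = 0.0026).

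The lysosomal alpha-mannosidases, enzymes that trim sugar chains, had 5 falls among 6 tested (median -3.34) and 4 with replicates 1 and 3. LManVI had 158, 127 and 136 CPM in 95Cc.del larvae, against 1410.4, 2055 and 1342 CPM in WT larvae (-3.47 ± 0.16, edgeR adjusted p = 0.000188). LManIV fell by 3.97 ± 0.23 on the log2 scale (edgeR adjusted p = 0.000293). Of 9 tested Niemann-Pick genes, which carry sterols, 4 fell and none rose (median -0.64): Npc2d, for instance, had 14.4, 13 and 10.8 CPM in 95Cc.del, against 82.7, 162 and 72.9 CPM in WT (-2.97 ± 0.23, edgeR adjusted p = 0.00102). CG7916, with 24.4, 18.9 and 21.9 CPM in 95Cc.del, against 739, 1097 and 815 CPM in WT (-5.30 ± 0.17, edgeR adjusted p = 0.000156), and CG10081, with 0.879, 0.425 and 0.689 CPM in 95Cc.del, against 73.2, 134 and 65.7 CPM in WT (-7.01 ± 0.32, edgeR adjusted p = 0.000188), were among the genes outside the lists that fell most.

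Markers of the midgut moved with these genes in part. Of 5 midgut markers 2 fell (3 were lower with replicates 1 and 3), the microvillar gene mex1 (13.7, 14.3 and 13.5 CPM in 95Cc.del larvae, against 31.2, 69.8 and 37.9 CPM in WT larvae, -1.66) and GATAe (10.7, 14.6 and 12.9 CPM in 95Cc.del, against 34.3, 24.4 and 37.9 CPM in WT, -1.35), a transcription factor of the endoderm. The brush border myosin Myo61F had 180.5, 164 and 147 CPM in 95Cc.del, against 168, 166 and 153 CPM in WT (0.03, edgeR adjusted p = 0.947). Without 1 of the 95Cc.del libraries neither was called (edgeR adjusted p up to 0.0593 for mex1 and 0.163 for GATAe). The 5 markers summed to 299.7 to 369 CPM in 95Cc.del, against 348 to 396 CPM in WT, with a median of -1.02. The part of midgut amount in the falls of digestive genes was not tested.

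Genes of immune families, some of which also act in the gut, fell as well. Of 5 tested lysozyme genes 3 fell (median -1.42), 4 with replicates 1 and 3, and none with WT replicate 1 or 3, or 95Cc.del replicate 1 or 2, left out. Of 11 tested peptidoglycan recognition proteins, which sense or degrade bacterial cell wall, 3 fell and none rose (median -0.67), 2 with any 1 library other than WT replicate 2 left out. PGRP-SB2 had 4.12, 5.16 and 3.82 CPM in 95Cc.del larvae, against 13.8, 17.8 and 12.5 CPM in WT larvae (-1.71 ± 0.17, edgeR adjusted p = 0.00267). PGRP-SC1b had 0.0549, 0.0606 and 0.188 CPM in 95Cc.del, against 13.7, 0.755 and 7.87 CPM in WT (-6.23 ± 1.34, edgeR adjusted p = 0.0401), with WT replicate 2 far below the others and the call lost without any 1 of the other libraries (edgeR adjusted p up to 0.17), and shares sequence with its copy PGRP-SC1a. Of 7 tested Bomanins, short secreted peptides of the Toll response, 4 fell and none rose (median -2.15): BomS3 had 1.21, 1.39 and 0.752 CPM in 95Cc.del, against 6.15, 10.3 and 7.04 CPM in WT (-2.75 ± 0.25, edgeR adjusted p = 0.0019). The Bomanin with the highest mean CPM, BomT3, was not called (0.18, edgeR adjusted p = 0.866). It had 5.38, 4.79 and 4.82 CPM in 95Cc.del, against 5.79, 2.43 and 4.59 CPM in WT. BomS1 had 1, 1 and 0 reads in 95Cc.del, against 17, 24 and 22 in WT, a ratio of 31.6 with a 95% counting interval of 8.4 to 267. Of 7 tested classical antimicrobial peptides 1 rose, Def, the gene of the defensin peptide (2.15), and 1 fell, Drsl5 (-1.13), both at low levels. Each call was lost when 1 of several libraries was left out (edgeR adjusted p up to 0.0771 and 0.233). Drs, the most abundant member, had 14.4, 10.2 and 15.7 CPM in 95Cc.del, against 59.9, 21.5 and 45.6 CPM in WT. It was not called with all replicates (-1.69, edgeR adjusted p = 0.0834) and was lower with replicates 1 and 3 (-1.90). The list summed to 39.5 to 44.3 CPM in 95Cc.del, against 59.8 to 87.4 CPM in WT.

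Blood cell genes showed a narrow change. PPO1, a prophenoloxidase of the crystal cells, the blood cells that start melanisation, had 119, 106 and 95.3 CPM in 95Cc.del larvae, against 457, 575 and 396 CPM in WT larvae (-2.12 ± 0.13, edgeR adjusted p = 0.000349). PPO2, the other crystal cell enzyme, had 63.7, 89.1 and 85.4 CPM in 95Cc.del, against 530.4, 79.0 and 478 CPM in WT. It was not called with all replicates (edgeR adjusted p = 0.134) and was called with replicates 1 and 3 (-2.84). The 3 crystal cell markers summed to 184 to 199 CPM in 95Cc.del, against 656 to 993 CPM in WT, whereas lz, the transcription factor that makes crystal cells, overlapped between groups (-0.49, edgeR adjusted p = 0.73). In the libraries of the other deletion strains the marker sum was 48.7 to 239.9 CPM, so low values were not confined to 95Cc.del. Tep4, a thioester protein of immunity, fell by 2.58 ± 0.16 on the log2 scale (edgeR adjusted p = 0.000349), with 52.4, 44.9 and 39.2 CPM in 95Cc.del, against 242, 381 and 222 CPM in WT. The 4 markers of hemocytes at large gave no call (median -0.05), and Hml, hemolectin, one of their defining genes, had 1184, 1021 and 955 CPM in 95Cc.del, against 789, 1384 and 752 CPM in WT.

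The ferritin genes fell. Of 15 tested iron, copper and metallothionein genes 2 fell and none rose with all replicates (median -0.13), 4 were lower with replicates 1 and 3 and 5 without WT replicate 2. The 2 were both subunits of secreted ferritin, neither of which was called without 95Cc.del replicate 1 or 2 (edgeR adjusted p = 0.0533 to 0.0554). Fer1HCH, the heavy chain, had 485, 425 and 430.1 CPM in 95Cc.del larvae, against 1278, 1129.6 and 1231 CPM in WT larvae (-1.43 ± 0.19, edgeR adjusted p = 0.0071). Fer2LCH, the light chain, had 239.9, 262 and 293 CPM in 95Cc.del, against 906, 788 and 991 CPM in WT (-1.75 ± 0.24, edgeR adjusted p = 0.00754). In both the groups were tight and far apart. The genes overlap on opposite strands and the strand setting of the counting is not given in the sources used here, so their values may not be independent.

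Detoxification genes held calls in both directions. Of 74 tested cytochrome P450 genes 7 rose and 11 fell (median 0.06), of 28 tested UDP-glycosyltransferases 3 rose and 5 fell (median -0.36), and of 33 tested glutathione S-transferases 2 rose and 1 fell (median 0.07), beside 2.07% higher and 2.73% lower over all tested genes. With 1 of the 95Cc.del libraries left out, 1 UDP-glycosyltransferase was higher and 1 or 2 were lower. Replicates 1 and 3 turned the P450 balance to 10 higher and 7 lower of 75, and leaving out any 1 library other than WT replicate 2 gave 1 to 3 higher and 4 to 8 lower. Cyp6a14 had 46.0, 38.6 and 39.0 CPM in 95Cc.del larvae, against 203, 285 and 197 CPM in WT larvae (-2.43 ± 0.12, edgeR adjusted p = 0.000188). Its relative Cyp6a18 had 16.6, 12.5 and 14.5 CPM in 95Cc.del, against 3.21, 4.36 and 3.28 CPM in WT (2.04 ± 0.16, edgeR adjusted p = 0.00101). GstD3 rose by 1.66 and GstD10, of the same gene cluster, fell by 1.48 on the log2 scale, a call lost without any 1 of the 95Cc.del libraries (edgeR adjusted p = 0.059 to 0.0879).

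No gene of the splicing lists was called. Of 9 tested genes for U1 snRNP and Sm proteins none was called, with log2 fold changes from -0.86 to 0.45 (median 0.10), and of 12 genes for SR proteins, regulators of splice site choice, and their kinase Doa none was called, from -0.25 to 0.52 (median 0.03). Markers of neurons (5 tested, median 0.14), testis (7, median 0.65), germ line (2) and fat body (6, median 0.09) gave no call, and nor did 89 ribosomal protein genes (median -0.05). Among 86 small nucleolar RNA genes 1 rose and 2 fell, where 2.07% of all tested genes rose and 2.73% fell. The testis markers summed to 26.1 to 32.9 CPM in 95Cc.del larvae, against 16.5 to 29.8 CPM in WT larvae.

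The direct comparison with the other deletion strains shows which of these genes differ from the mean of those strains. All 4 new glue genes, 8 of 31 sarcomere genes, 9 of 16 Lcp genes and 15 of 45 Cpr genes were higher in 95Cc.del than in that mean (1 Lcp and 4 Cpr genes were lower), against 6.46% of all tested genes. Without 95Cc.del replicate 1, 4 new glue, 7 of 33 sarcomere, 7 of 16 Lcp and 12 of 45 Cpr genes were higher. Cpr47Ec had 428 ± 23.5 CPM in 95Cc.del, against 135 ± 50.5 in 21D.del, 6.50 ± 2.34 in 82Eb.del, 53.3 ± 8.37 in 95Ca.del, 7.54 ± 2.24 in 95Cb.del and 129 ± 49.5 in WT (SD, n = 3 each), and its log2 fold change against the other deletion strains was 4.10. Smvt had 73.0 ± 9.83 CPM in 95Cc.del and 3.74 to 18.6 CPM in the 12 libraries of the other strains (3.04). Mhc had 15168 ± 1250.1 CPM in 95Cc.del, against 7258 ± 2293 in 21D.del, 6433 ± 1326 in 82Eb.del, 10598 ± 944 in 95Ca.del, 4079 ± 712 in 95Cb.del and 4748 ± 997 in WT (1.12). These 3 genes had no overlap between 95Cc.del and any other library of the series. tej and ng1 were not confined to 95Cc.del: 21D.del had 24.8 ± 11.8 CPM of tej and 16.2 ± 6.06 CPM of ng1.

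More ecdysone response genes were called against the other strains than against WT, in a comparison that holds more libraries. Of 22 tested, 12 were lower in 95Cc.del than in the mean of the other 4 strains and none was higher, against 2.60% of all tested genes. Without 95Cc.del replicate 1, 10 were lower and 1 was higher. The ecdysone response genes summed to 2831 to 3593 CPM in 95Cc.del, against 4979 to 7706 CPM in the other deletion strains and 3718 to 4247 CPM in WT. ImpE2 had 127 ± 3.74 CPM in 95Cc.del, against 355 to 686 CPM in the 12 other libraries. br, Blimp-1, Hr3, Hr4, Eip78C and Eip93F, transcription factors of the hormone cascade, were among the 12. Of 8 glue genes 4 were lower (Sgs4, Sgs5bis, Sgs7 and Sgs8), as were 6 tanning genes (2 were higher), among them ple and Ddc, which make dopa and dopamine. Without 95Cc.del replicate 1, 2 glue genes and 5 tanning genes were lower.

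95Cc.del was also set against the other strains for the digestive genes. Of 13 lipases 2 were higher and 2 lower in 95Cc.del, of 6 mannosidases 4 and 1, of 14 amylases and maltases 3 and 1, and of 26 Jonah and trypsin peptidases 4 and 0, beside 6.46% higher and 2.60% lower over all tested genes. Among those not called was the lipase gene CG6295, which had 15.2 ± 1.87 CPM in 95Cc.del, against 75.4 ± 67.3 in 21D.del, 16.7 ± 5.25 in 82Eb.del, 35.3 ± 10.9 in 95Ca.del, 49.9 ± 5.95 in 95Cb.del and 608 ± 233 in WT. Some genes below WT were above the other strains. LManVI had 140.3 ± 15.8 CPM in 95Cc.del and 32.4 to 102 CPM in the 12 other libraries, against 1602 ± 393 in WT (1.34 over the other strains). Cyp6a14 had 41.2 ± 4.15 CPM in 95Cc.del and 11 to 32.1 CPM in the 12 others (1.23), and 24 of 75 P450 genes were higher and none lower in 95Cc.del than in the other strains. Without 95Cc.del replicate 1, 19 of 76 were higher and 1 lower.

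**Figure D5:**
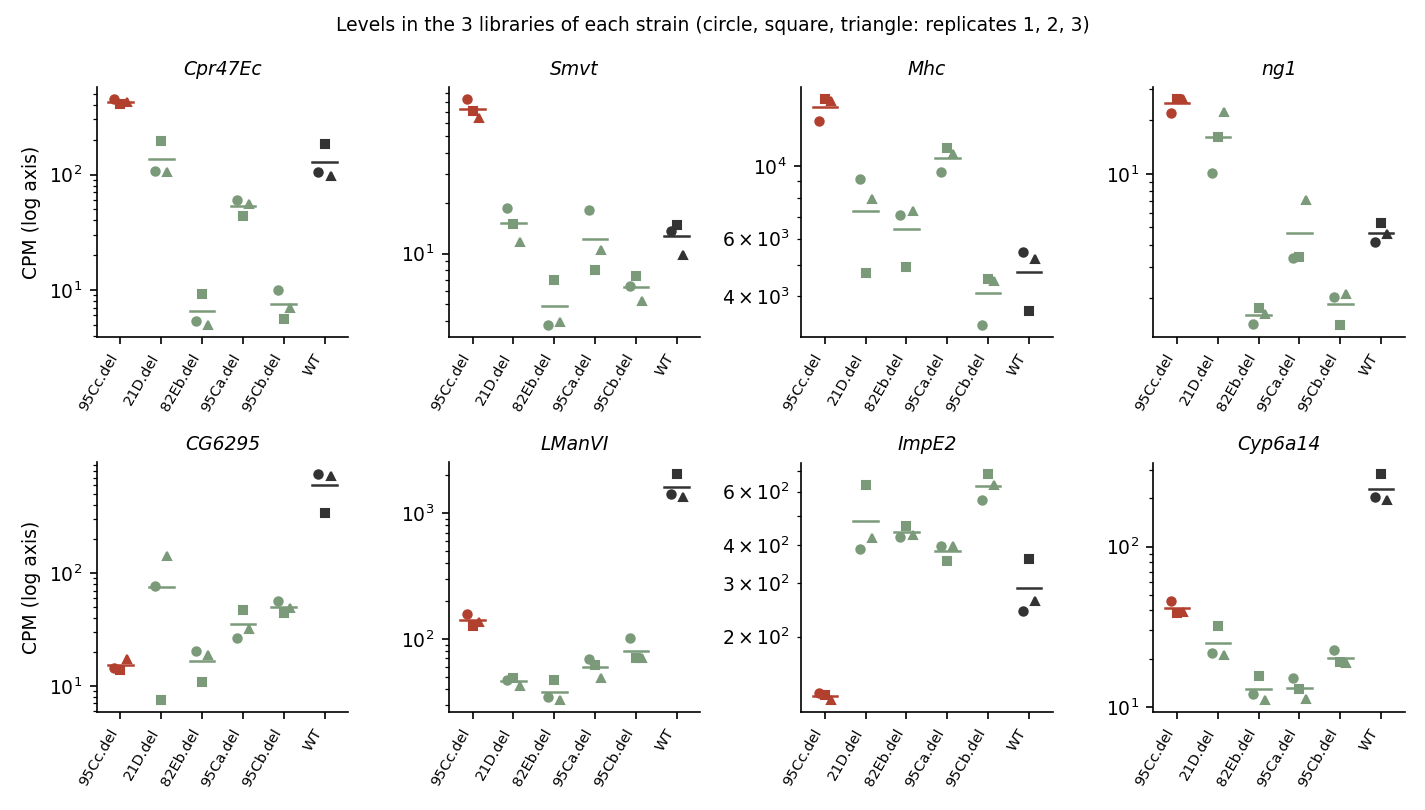
CPM on a log axis (vertical) of Cpr47Ec, Smvt, Mhc, ng1, CG6295, LManVI, ImpE2 and Cyp6a14 in each library of the 6 strains (horizontal axis, 95Cc.del at the left and WT at the right). Cpr47Ec, Smvt and Mhc are highest in 95Cc.del, ImpE2 is lowest in 95Cc.del, and CG6295, LManVI and Cyp6a14 are highest in WT and lower in all 5 deletion strains.

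Called genes were also sorted by structure and position. Of the genes that rose 27.1% had at least 5 introns, of those that fell 14.7%, and of all tested genes 25.7%. Median exonic length was 1594 bp for genes that rose, 1454 bp for genes that fell and 1830.0 bp over all tested genes. Of the 271 tested genes with at least 10000 bp of exon, 6 rose (2.21%, near the 2.07% over all tested genes) and none fell. Arm 3R, which carries the deletion, had 75 rises (2.46%) and 96 falls (3.15%) among 3052 tested genes, beside 2.07% and 2.73% over all tested genes. X had 33 (1.68%) and 32 (1.63%) of 1961, 2L 40 (1.74%) and 62 (2.7%) of 2296 and 2R 53 (2.09%) and 85 (3.35%) of 2535. On 3L there were 54 (2.17%) and 65 (2.62%) of 2485, and on the fourth chromosome 3 (3.26%) and 0 of 92. Known names were scarcer among the calls: 47.3% of the genes that rose and 54.7% of those that fell carry only a CG number, against 38.1% of all tested genes.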

How the data were processed

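RNA-seq read counts per gene of 18 libraries of whole larvae, in 6 groups of 3, were analysed. According to the labels the libraries keep strand and were made from total RNA after rRNA depletion, although a note in the study's supplement speaks of mRNA-seq. The authors deposited raw counts per gene. The submitters' processing notes name Trimmomatic 0.39, cutadapt 1.15 and the dm6 build, and the methods name HISAT2 and featureCounts. Versions of these and the strand and multiple-mapping settings are not given in the sources used here. Of the 17562 genes listed, 17479 (99.5%) matched the Ensembl annotation of the BDGP6 assembly (the assembly of dm6), 17421 of them at the coordinates the count file gives, and this annotation gave positions and lengths. No column lacked a sample.

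Groups came from the sample labels. Genes were kept with edgeR's filterByExpr (minimum count 10, minimum total 15), scaled by TMM and tested with edgeR 4.0.16's quasi-likelihood F test (R 4.3.3, limma 3.58.1) on the libraries compared. P-values were adjusted by Benjamini-Hochberg over all tested genes, and a gene was called at an adjusted p below 0.05 and a fold above 2. The comparisons were 95Cc.del against WT with all replicates, the same with replicates 1 and 3, and 95Cc.del against the mean of the other 4 strain means (log2). CPM is a count per 1000000 counts of its library, without TMM, and a pseudocount of 0.5 CPM was used only to compare libraries. The biological coefficient of variation was 0.28 with all replicates and 0.156 without WT replicate 2. Intervals and floors cover counting error only, since reads carried no molecular identifiers. No pair among the 95Cc.del and WT libraries was close enough in counts to be 1 library deposited more than once. Pairs with libraries of the other 4 strains were not compared. Scripts were tested on simulated counts.

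Alternatives were DESeq2 1.42.0, DESeq2's size factors, library totals, no filter, a block on the replicate number, all 18 libraries in 1 fit, each library left out in turn and, added after seeing the data, 95Cc.del replicates 2 and 3 against WT replicates 1 and 3. Genes were named by these rules: U1 genes and genes within 20 kb of the deletion, the 12 genes with the largest change in each direction, the 8 called genes with the highest CPM in each direction, the extremes of each of 48 gene lists, and the genes furthest from the other strains. The 12 were taken among genes called with all replicates and with replicates 1 and 3. Their groups also had to be without overlap in CPM, with a mean of at least 5 CPM in the higher group. CG13560, prc, Scgdelta, Neto, Strn-Mlck, TpnC25D, Mal-A1, Amy-p, Cyp6a14, PPO2, lz, Zasp66, wupA and other members named within list counts were chosen after their values were seen. Members and lists were chosen with earlier results of these data known. The cytochrome P450 list was corrected after the files were read, to take out cyclophilins. Of the names in the lists, 7 are not analysed here.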

Additional observations from a re-analysis of the deposited data

Results flagged for a closer look

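The following genes were called against WT, or named with the lists, and their effect in 95Cc.del differs from that in the other 4 deletion strains by the direct test of 95Cc.del against those strains (edgeR). Values are log2 fold changes of 95Cc.del over the mean of the other 4 strains, and chance was not assessed beyond that test.

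Among genes above WT, some muscle and metabolic genes were also above the other strains: Mhc by 1.12, Act57B by 1.16, Mlc1 by 1.23, Obsc by 1.05, up by 1.08, RyR by 1.35, Gpdh1 by 1.55 and Gyg by 1.19. Other muscle, metabolic and matrix genes that rose against WT were not called here: bt (0.44), sls (-0.02), SERCA (0.65), GluRIIE (0.20), Pfk (0.74) and Ndg (0.32). Cuticle genes and the matrix gene Loxl2 were further above the other strains, with Cpr47Ec at 4.10, Cpr47Eg at 5.13, Cpr49Af at 2.89, Lcp65Ab1 at 3.84, Lcp65Ae at 3.19, Lcp65Ag1 at 3.49, TwdlO at 4.32, TwdlP at 5.34 and Loxl2 at 2.5. The salivary genes ng1 (2.64), ng3 (1.81) and Pig1 (1.07) followed, as did Ugt35B1 (3.30), GstD3 (1.03), the defensin gene Def (2.57), the piRNA gene tej (2.44, although it had 19.6 ± 1.83 CPM in 95Cc.del, against 24.8 ± 11.8 CPM in 21D.del), Hsp70Aa (1.78), Smvt (3.04), Acsx1R (3.49) and FBgn0010549, an ABC transporter gene (1.59). Genes known by number only in this set were CG13230 (5.89), CG15597 (4.48), CG12607 (4.23), CG31343 (3.42), CG15615 (3.37), CG8774 (3.37), CG8630 (2.38), CG34278 (2.21) and CG4653 (1.21).

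Among genes below WT, some were also below the other strains. These were Eig71Ea (-2.88), Eig71Eb (-2.71), ImpE2 (-1.94) and e (-1.99). Gut or immune genes among them were PGRP-SB2 (-2.83), Drsl5 (-2.21), pirk (-1.68), LysP (-1.27) and Tep4 (-1.28). Further ones were Cpr66Cb (-1.40), CtsL3 (-2.32), Spn100A (-2.68), Ocho (-1.48), LManI (-1.16) and lncRNA:CR46123 (-2.76). The lipase genes CG17191 (-6.89) and CG17192 (-3.50) belong here at very low counts, with CG10081 (-2.0), CG31683 (-2.30), CG31741 (-1.86), CG42269 (-1.72) and CG42834 (-2.37).

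Other genes were below WT but above the other strains: the Bomanins BomS2 (3.03) and BomS3 (1.38), CG31091 (2.94), the chitinase Cht4 (1.06), LManIV (1.5), LManVI (1.34), Ugt37A2 (2.28) and etaTry (1.09). For BomS2 the levels were 0.612 ± 0.0521 CPM in 95Cc.del and 0 to 0.17 CPM in the 12 libraries of the other strains, against 2.44 ± 0.938 CPM in WT.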

How the results depend on the processing

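DESeq2 gave 290 higher and 408 lower genes for 95Cc.del against WT with all replicates, 297 and 412 with replicates 1 and 3, and 954 and 397 against the other strains. For all replicates the 258 higher genes became 164 with library totals and 418 with 95Cc.del replicates 2 and 3 against WT replicates 1 and 3. Leaving out each library in turn gave 273 to 809 calls where all libraries gave 598, with 100 to 363 higher and 173 to 446 lower. The lowest counts were without 95Cc.del replicate 2 (273), 3 (309) or 1 (326), and the highest (809) without WT replicate 2. WT replicates 1 and 3 left out gave 136 and 130 higher genes. For replicates 1 and 3 the 295 higher genes became 443 with library totals, which moved the median log2 fold change of all genes to 0.11. Leaving out each library there leaves 1 sample in an arm, assumed to vary like the other group, and gave 132 to 1448 calls where all 4 libraries gave 675, with 24 to 468 higher and 108 to 980 lower (132 calls without WT replicate 1, 150 without WT replicate 3 and 1448 without 95Cc.del replicate 3). Fewer samples are left in these fits, and the cause of the differences between them was not tested. Against the other strains every count stayed within 1.5 times of the values reported (835 to 1509 calls with each library left out). Of the 113 genes that the naming rule chose and that were called against WT, 53 were called under every alternative and all 113 kept their direction (genes named outside the rule were not followed singly), and the 16 genes named for the comparison with the other strains kept their calls.

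The replicate numbers were checked as a pairing. Deviations of same-numbered libraries from their group means correlated at -0.58, -0.45 and 0.52, and 95Cc.del replicate 1 correlated best with WT replicate 2 (0.66). Deviations cancel within a group and can be led by 1 library that stands apart. These values therefore cannot show whether same-numbered libraries share more than a number. A block on the replicate number gave 245 calls with all replicates (70 higher and 175 lower), 194 higher and 321 lower genes with replicates 1 and 3, and 1170 calls against the other strains. Genes with few reads, such as the U1 genes, were limited by depth.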

Other observations

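Some smaller gene groups have not been described. Of 22 tested genes of chitin synthesis, turnover and the peritrophic matrix, 2 chitinases fell and none rose (median 0.15). Cht4 had 81.9, 72.6 and 76.7 CPM in 95Cc.del larvae, against 234, 241 and 207 CPM in WT larvae, with tight groups. Cht9 had 3.68, 5.16 and 10.1 CPM in 95Cc.del, against 40.6, 20.3 and 52.6 CPM in WT. Of 14 tested neural and patterning transcription factors 1 fell and none rose with all replicates (median -0.51), where 2.73% of all tested genes fell. Of these factors 3 were lower with replicates 1 and 3 and 4 without WT replicate 2. The factor that fell with all replicates was vnd, which patterns the ventral nervous system, with 3.63, 6.43 and 6.14 CPM in 95Cc.del, against 22.1, 11.9 and 22.8 CPM in WT. Of 14 tested genes of the E(spl) and Bearded families of the Notch response 1 fell, Ocho (-1.41), beside 2.73% of all tested genes. Cht9, vnd and Ocho lost their calls with several libraries left out.

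Genes known by number only made up a large share of the calls, and some had high counts. CG8997 had 267, 219.6 and 217 CPM in 95Cc.del larvae, against 1263, 1829 and 1146 CPM in WT larvae (-2.54). CG2233 went the other way, with 1797, 1515 and 1390.1 CPM in 95Cc.del, against 562, 764 and 532 CPM in WT (1.38). In both the libraries of each group stayed together. The long non-coding RNA lncRNA:CR46123 had 0, 0.0606 and 0.626 CPM in 95Cc.del, against 17.5, 38.8 and 21.5 CPM in WT (-6.75).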
